A study of Mus musculus with 6 samples.

Results

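The 9 genes described here, of blood clotting, its restraint and clot removal, were followed through the 6 libraries of mouse bone marrow stromal cells. They are Fgl2, F3, F10, F13a1, Tfpi, Thbd, Procr, Plau and Plaur. These 9 of the 27263 genes with a value were chosen by name for their part in clotting or plasminogen activation, and Fgl2 leads the list because it was already known to differ between the groups of these same libraries. Their differences between groups are therefore given as a description, and no test of the members is used as support. All 9 were identified by Ensembl identifier, and all 9 passed the filter on low values, which required an average level of 1 FPKM or more. FPKM is fragments per kilobase of exon, scaled to library size, a level per length that allows one gene to be set beside another. The cells came from tibia and femur marrow of C57BL/6 mice and were sorted by flow cytometry as Sca-1+ CD29+ CD45- CD11b-. They were grown in alpha-MEM with 10% fetal bovine serum. In the GCA group they received rGCA at 50 nM for 3 days, and in the PBS group the buffer alone for the same time, with 3 libraries in each group. From knowledge of the study, GCA stands for grancalcin, which binds calcium and is made by myeloid cells, and rGCA for the recombinant protein. No label gives the age of the mice or says that replicates were separate animals or cultures, so any p-value measures the spread between these libraries, which may be technical.

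Clotting outside a damaged vessel starts with tissue factor, the product of F3, which binds factor VII and activates factor X. Activated factor X turns prothrombin into thrombin, thrombin cuts fibrinogen to fibrin, and factor XIII cross-links the fibrin. Fibroleukin, the product of Fgl2, is a fibrinogen-like protein that cleaves prothrombin directly when it sits on the surface of macrophages or endothelial cells, and T cells secrete a soluble form. Thrombomodulin (Thbd) and the endothelial protein C receptor (Procr) turn thrombin towards activating protein C, and tissue factor pathway inhibitor (Tfpi) blocks the start. Urokinase (Plau), held on cells by its receptor (Plaur), makes plasmin, which dissolves fibrin. Macrophages are a known source of tissue factor, factor X, factor XIII subunit A and urokinase outside the liver.

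The totals behind the FPKM values were not given and were fitted so that values became whole fragments. They were 17543509 to 18645932 per library. The fragments recovered this way summed to more in each library, 18929244 to 19943239. The sort markers were present at the RNA level, with Ly6a, which encodes Sca-1, at 255 to 357 FPKM and Itgb1, which encodes CD29, at 295 to 368. Transcripts of cells outside the gate were present too, with Ptprc, which encodes CD45, at 12.0 to 14.5 FPKM and Itgam, which encodes CD11b, at 24.9 to 43.1. Of the 20 genes of a macrophage marker list none was below 1 FPKM in every library, and 19 passed the filter. The sum of the 20 was 18965 to 21168 FPKM in PBS and 16648 to 17992 in GCA. Lyz2, which encodes lysozyme, went from 13518 to 8879 FPKM by means and fell, and without it the sum was 6340 to 6951 FPKM in PBS and 8302 to 8652 in GCA. In the list of 14 stromal markers the sum was 2895 to 3142 FPKM in PBS and 2523 to 2716 in GCA. Endothelial cells and platelets are other usual carriers of clotting genes. Of 12 endothelial markers 11 were below 1 FPKM in every library, and the sum was 3.10 to 3.81 FPKM in PBS and 3.19 to 3.68 in GCA. The megakaryocyte list summed to 29.7 to 37.2 FPKM in PBS and 72.4 to 79.5 in GCA. Nearly all of that was Pf4, the platelet factor 4 gene, which rose from 29.6 ± 3.80 to 74.2 ± 4.56 FPKM (adjusted p = 0.00030 by limma). Without Pf4 the sums were 3.16 to 3.44 and 2.49 to 3.41 FPKM. Treml1, at 0.960 to 1.61 FPKM, and Gp1bb, at 0.741 to 1.55, also passed the filter. Gp6, a platelet collagen receptor gene, was at 0 in all libraries but GCA replicate 2, where it was at 0.0097. GCA replicate 2 stood apart from the other GCA libraries on the second principal component, which held 16.2% of the variance, at 15.0 against -3.0 and -10.2.

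In PBS, F13a1 was by far the most abundant of the 9 genes, at 394 ± 14.7 FPKM (SD, n = 3, as for every mean below), above 99.3% of the 11984 genes tested. The other 8 lay between 2.15 and 20.7 FPKM. The order of mean levels was F13a1, Plau, Plaur, Fgl2, Procr, Tfpi, Thbd, F3 and F10, and only Tfpi and Thbd were neighbours whose values overlapped. With GCA the order became F13a1, Fgl2, Plau, Plaur, Thbd, Tfpi, Procr, F3 and F10. Fgl2 moved from the fourth to the second place, and Procr fell below Thbd and Tfpi. Values of Thbd and Tfpi, of Procr and F3, and of F3 and F10 overlapped there. The fit across all genes (limma on log2(FPKM + 1), adjusted p below 0.05) called 4 of the 9, Fgl2 and F10 higher and F13a1 and Procr lower. Over all tested genes it called 17.9%, 11.5% higher and 6.43% lower. After quantile normalization, 1202 of all genes were called higher and 1021 lower, against 1380 and 771 as deposited, and the same 4 members were called. The 3 GCA values lay wholly outside the 3 PBS values for those 4 genes and for Plaur, so for 5 of the 9. Of all tested genes 38.5% did so, 21.6% upwards and 16.8% downwards. Nothing is read from these member counts, because the list was drawn up with this contrast known.

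**Figure D1:**
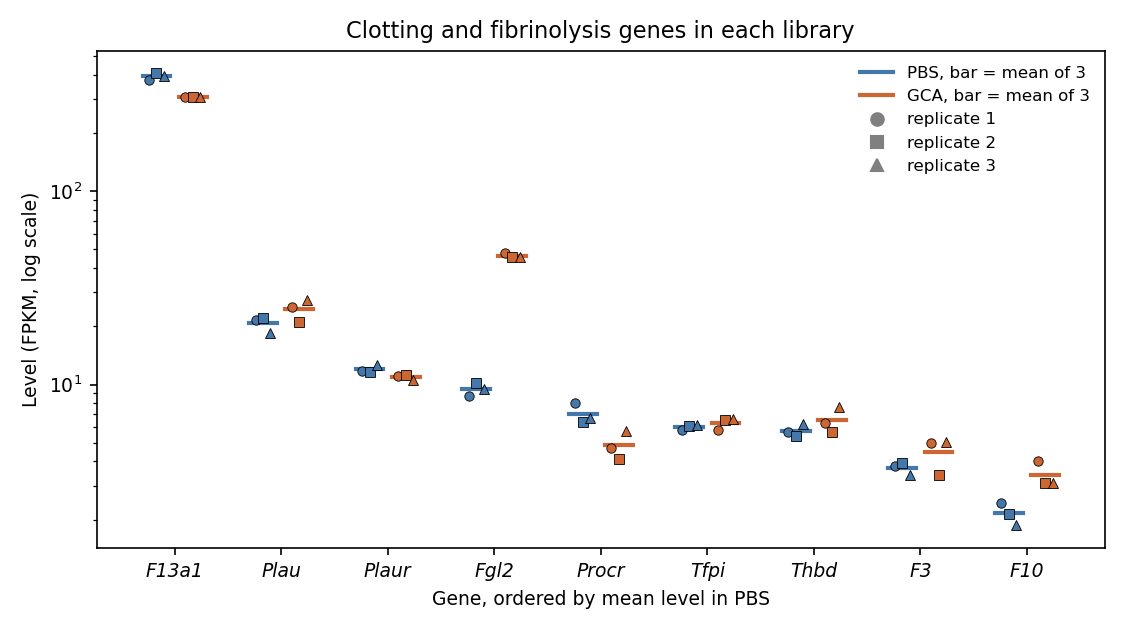
Level of each of the 9 genes in every library in FPKM on a log axis, with PBS in blue and GCA in orange; bars are means of 3 libraries and marker shapes are replicate numbers. Fgl2 moves from 9.44 to 46.4 FPKM while F13a1 stays far above the other genes in both groups.

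Fgl2 (ENSMUSG00000039899, chromosome 5, 21372642 to 21378374 on the plus strand, GRCm38) stood at 8.69, 10.2 and 9.45 FPKM in PBS replicates 1 to 3. The GCA libraries were at 47.9, 45.4 and 45.9 FPKM. All GCA values exceeded all PBS values more than 4-fold, and both groups were tight. The means were 9.44 ± 0.74 and 46.4 ± 1.30 FPKM, a ratio of 4.92, and the log2 fold change was 2.19 (SE 0.061). The mean exceeded that of 58.5% of tested genes in PBS and 91.1% in GCA. Between 600 and 3242 fragments stood behind these values, so counting error was small. In the same libraries 10 of 19 tested macrophage markers rose, Lyz2 fell and 8 did not pass, among them Adgre1, Csf1r, Mertk and Cd14. Of all tested genes 11.5% were called higher and 6.43% lower. Cd14 was lower in every GCA library, at 76.3 FPKM in PBS and 41.3 in GCA by means. The part of these markers in the Fgl2 difference was not tested. In bulk RNA fewer cells of a type and less RNA per cell cannot be told apart. The gene lies inside Ccdc146, a protein-coding gene on the opposite strand, whose own level was 0.110 to 0.167 FPKM in the 6 libraries. No stretch of 50 bases in its transcripts was shared with another gene of the annotation.

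The nearest genes to Fgl2 in pattern were taken by the smallest root mean square difference in log2(FPKM + 1), each gene relative to its PBS mean, over the 6 libraries. They were Lyve1 (0.257), which encodes a receptor for hyaluronan on lymphatic endothelium and on subsets of resident macrophages, Abcg3 (0.331), an ABC transporter family gene, and the chemokine gene Ccl8 (0.332). Next came Ascl2 (0.341), a basic helix-loop-helix transcription factor, and the guanylate-binding protein gene Gbp8 (0.395). Ascl2 had GCA values slightly tighter than those of Fgl2 on this scale, at 6.38, 6.64 and 6.31 FPKM after 1.22, 1.56 and 1.04 in PBS. In Lyve1 and Ccl8 GCA replicate 2 was lowest, at 16.9 FPKM against 26.0 and 25.0 for Lyve1 and at 78.0 against 113 and 96.5 for Ccl8. In Fgl2 GCA replicate 2 was also lowest, but by a small margin, at 45.4 FPKM against 47.9 and 45.9. With groups this far apart, likeness rests mostly on the size of the step between them.

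**Figure D2:**
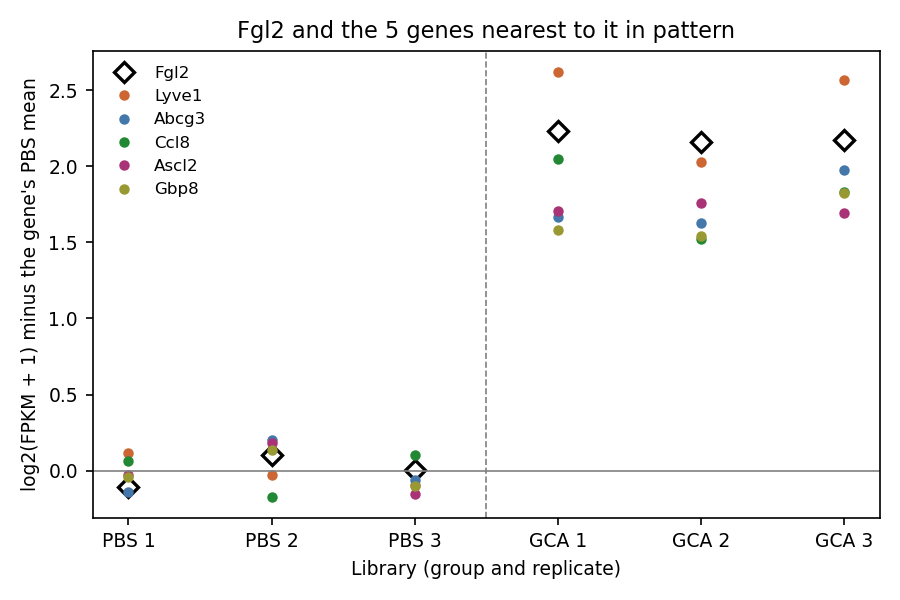
Difference of each library from the gene's own PBS mean in log2(FPKM + 1), for Fgl2 (open diamonds) and the 5 genes nearest to it (dots). All 6 genes step up between PBS and GCA, and Fgl2 differs least among the 3 GCA libraries apart from Ascl2.

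Of the genes that start the cascade, F3 (chromosome 3, 121723537 to 121735048), which encodes tissue factor, was at 3.80, 3.90 and 3.40 FPKM in PBS. In GCA it was at 4.96, 3.38 and 5.03 FPKM. GCA replicates 1 and 3 lay above every PBS value and GCA replicate 2 lay below them all, so the groups overlapped. The log2 fold change was 0.20 (SE 0.13) and F3 was not called. Without GCA replicate 2 it was 0.35 and F3 was called higher.

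F10 (chromosome 8, 13037308 to 13056676) encodes factor X, the protease that makes thrombin. Its PBS values were 2.45, 2.14 and 1.87 FPKM and its GCA values 4.02, 3.09 and 3.08. The groups did not overlap, with GCA replicate 1 highest. The mean rose 1.58-fold, from 2.15 ± 0.29 to 3.40 ± 0.54 FPKM, with a log2 fold change of 0.48 (SE 0.11). This is the lowest of the 9 genes, with 91 to 196 fragments per library. The call ended without PBS replicate 2 (log2 fold change 0.48) and without PBS replicate 3 (0.41).

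F7 (chromosome 8, 13026034 to 13035809), which encodes factor VII, the partner of tissue factor, is not among the 9 but is the next gene to F10, on the same strand and 1498 bases upstream of it. It was at 1.06, 1.30 and 1.12 FPKM in PBS and at 2.83, 1.69 and 2.68 in GCA. The groups did not overlap, and GCA replicate 2 was again the lowest GCA library. F7 rose, with a ratio of means of 2.07 and an adjusted p of 0.0167 by limma (log2 fold change 0.64, SE 0.14). Only 36 to 94 fragments lay behind each value. Its call depended on single libraries. The adjusted p was 0.0621 with PBS replicate 1 left out, 0.0579 with PBS replicate 3 left out, 0.0523 with GCA replicate 1 left out and 0.0552 with GCA replicate 3 left out. Proz, named for its position beside F10 after its values were seen, encodes protein Z, a vitamin K-dependent cofactor that helps to inhibit factor X. The gene lies 4237 bases beyond F10 and was below the filter, at 0.288 to 0.435 FPKM in PBS and 0.205 to 0.283 in GCA, so the run of higher values ended there. The 6 hepatocyte markers of the list had no entry among the 27263 genes with a value, so no level could be read for them. Every gene with an entry was above 0 in some library, but what a missing entry stands for was not given.

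F13a1 (chromosome 13, 36867178 to 37050244, minus strand) encodes the catalytic subunit of factor XIII, the transglutaminase that cross-links fibrin and that marrow-derived macrophages make. It was at 378, 408 and 395 FPKM in PBS and at 308, 307 and 309 in GCA. Every GCA value was lower than every PBS value, and the GCA libraries were nearly identical. The mean fell from 394 ± 14.7 to 308 ± 1.29 FPKM, 1.28-fold lower, with a log2 fold change of -0.35 (SE 0.046). Between 36272 and 49907 fragments stood behind each value. A pair of antisense genes, Gm49144 and Gm30489, overlap it and were at 0 to 0.90 FPKM. Tgm2, a tissue transglutaminase, was at 13.9 ± 0.90 FPKM in PBS and 13.9 ± 1.20 in GCA, a difference that did not pass (adjusted p = 0.980 by limma). It was named after its value was seen.

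The sequences just upstream of the 4 called members and of F7 are shown to give the sequence context of the genes that differed, and no result rests on them. They come from RefSeq on GRCm38.p6, which held a start for 7 of the 9 members, and each ends before the start in GENCODE M21. That left 250 bases, but 219 for Fgl2 and 150 for Procr. For 6 motifs both strands were searched: AP-1 (TGANTCA), GC box (GGGCGG), PU.1 core (GAGGAA), C/EBP (TTGCNNAA), NF-kB and TATA box (TATAAA), and capitals mark matches.
Fgl2, chr5:21372423-21372641, plus strand: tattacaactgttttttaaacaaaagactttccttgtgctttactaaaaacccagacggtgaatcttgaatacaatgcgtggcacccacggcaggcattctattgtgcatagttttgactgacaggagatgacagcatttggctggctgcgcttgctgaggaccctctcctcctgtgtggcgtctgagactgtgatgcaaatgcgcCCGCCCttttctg
F10, chr8:13037058-13037307, plus strand: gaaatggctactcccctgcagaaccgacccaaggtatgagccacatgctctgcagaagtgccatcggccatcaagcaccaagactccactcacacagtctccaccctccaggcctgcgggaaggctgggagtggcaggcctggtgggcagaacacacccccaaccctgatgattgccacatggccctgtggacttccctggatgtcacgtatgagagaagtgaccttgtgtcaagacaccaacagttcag
F7, chr8:13025784-13026033, plus strand: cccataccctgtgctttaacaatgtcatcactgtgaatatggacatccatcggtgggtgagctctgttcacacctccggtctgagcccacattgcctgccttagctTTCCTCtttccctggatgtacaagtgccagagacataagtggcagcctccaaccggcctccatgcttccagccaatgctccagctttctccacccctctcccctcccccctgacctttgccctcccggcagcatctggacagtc
F13a1, chr13:37050245-37050494, minus strand: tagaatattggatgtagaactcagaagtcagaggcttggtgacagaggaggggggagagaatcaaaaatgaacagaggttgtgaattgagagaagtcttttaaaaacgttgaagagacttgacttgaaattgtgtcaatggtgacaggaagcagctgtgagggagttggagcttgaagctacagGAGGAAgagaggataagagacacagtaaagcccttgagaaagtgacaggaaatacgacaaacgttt
Procr, chr2:155750967-155751116, plus strand: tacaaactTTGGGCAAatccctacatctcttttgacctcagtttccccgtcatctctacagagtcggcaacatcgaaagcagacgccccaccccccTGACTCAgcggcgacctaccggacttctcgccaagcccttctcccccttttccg
In its printed stretch Fgl2 held 1 GC box, which 32.7% of all 32851 RefSeq windows of 250 bases upstream also hold. F13a1 and F7 held 1 PU.1 core each, found in 23.3% of windows, and F10 held none of the 6 motifs. Procr held 1 AP-1 match, as 6.75% of windows do, and 1 C/EBP match, as 9.56% do. The remaining bases of the 250-base RefSeq window of Fgl2, which lie past its GENCODE start and are not printed, complete 1 AP-1 match. Fgl2 and F10, both called higher, shared none of these motifs. AP-1 matches were also present upstream of F3, with 2, and of Plaur, with 1. A match of letters is a description and does not show that a factor binds.

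Among the inhibitors of clotting, Procr (chromosome 2, 155751117 to 155755471) was at 7.99, 6.40 and 6.74 FPKM in PBS. Its GCA values were 4.69, 4.13 and 5.73 FPKM. The groups did not overlap, although GCA replicate 3 came close to PBS replicate 2. The mean fell 1.45-fold, from 7.04 ± 0.84 to 4.85 ± 0.81 FPKM (log2 fold change -0.46, SE 0.11). The call was lost when any of 4 libraries was left out, namely PBS replicate 1 (-0.38), PBS replicate 3 (-0.49), and GCA replicates 1 (-0.45) and 2 (-0.37).

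Thbd (chromosome 2, 148404466 to 148408188), which encodes the thrombin receptor that works with Procr, was at 5.69, 5.38 and 6.22 FPKM in PBS. In GCA it was at 6.30, 5.66 and 7.62 FPKM, so the groups overlapped and Thbd was not called (log2 fold change 0.15, SE 0.097). Tfpi (chromosome 2, 84432855 to 84476775) was at 5.79, 6.07 and 6.19 FPKM in PBS and at 5.82, 6.53 and 6.65 in GCA. It had the smallest difference of the 9 genes, a log2 fold change of 0.06 (SE 0.062), and was not called. Of the 3 anticoagulant members Procr was called lower with GCA and Thbd and Tfpi were not called. Over all tested genes 17.9% were called, 6.43% lower, and nothing is read from this count of members.

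Plau (chromosome 14, 20836660 to 20843385), the gene of urokinase, was at 21.6, 22.0 and 18.6 FPKM in PBS. Its GCA values were 25.3, 21.02 and 27.3 FPKM. GCA replicates 1 and 3 lay above all PBS libraries, and GCA replicate 2 lay among them. Plau was not called (log2 fold change 0.23, SE 0.10). Without GCA replicate 2 it was called higher, at 0.33. Plaur (chromosome 7, 24462484 to 24475968), the gene of its receptor, was at 11.8, 11.6 and 12.6 FPKM in PBS and at 11.04, 11.3 and 10.5 in GCA. Every GCA value was below every PBS value by a small margin, with a mean ratio of 0.912, and Plaur was not called (log2 fold change -0.12, SE 0.053).

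GCA replicate 2 was the lowest GCA library for 6 of the 9 genes, and for 42.8% of all tested genes. It was the highest for Plaur alone. GCA replicate 3 was the highest for 6 of the 9, against 41.1% of all tested genes. Leaving out GCA replicate 2 raised the count of called members from 4 to 5, with F3 and Plau joining and Procr lost. Over all tested genes the count went from 2151 to 2088. Without PBS replicate 3 the count of members was 2, and that of all tested genes fell to 1232. The 2 members were Fgl2 and F13a1, which were called under every alternative run.

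**Figure D3:**
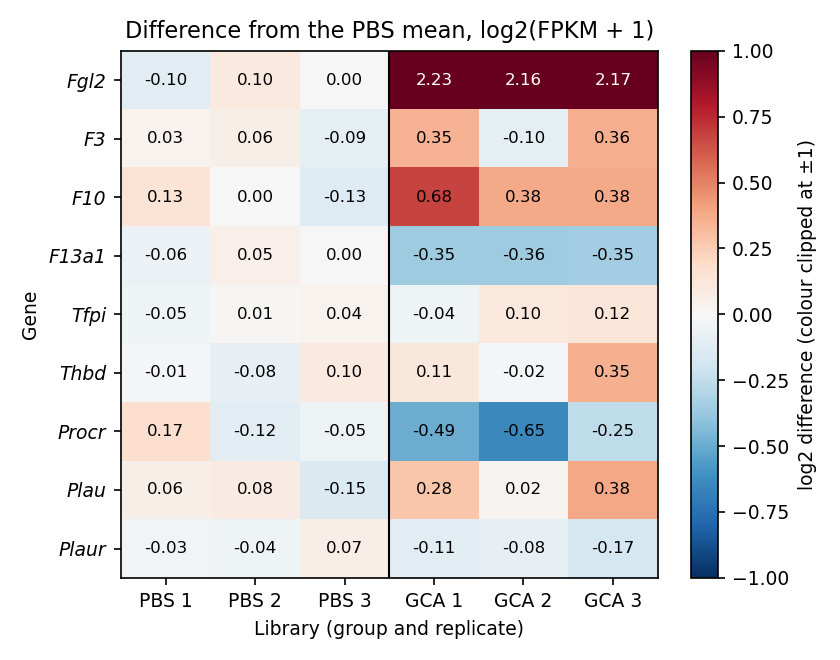
Difference of each library from the PBS mean in log2(FPKM + 1) for the 9 genes, in rows ordered by role; red is higher and blue lower, with colours clipped at 1 and values printed in the cells. F13a1 is lower by 0.35 to 0.36 in all 3 GCA libraries, whereas F3 and Plau differ between GCA replicate 2 and the other two.

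To place these genes in their pathway, 55 further genes of clotting and fibrinolysis were listed by role. Of these 49 had a value, 24 passed the filter and 11 were called, 2 higher (F7 and Plgrkt) and 9 lower. Over all tested genes 17.9% were called, 11.5% higher and 6.43% lower. The median log2 fold change of the 24 was -0.16, beside 0.006 for all tested genes. Below 0 were 20 of the 24, beside 5803 of all 11984 tested genes. Groups did not overlap for 13 of the 24, 2 upwards and 11 downwards. For all tested genes the shares were 38.5%, 21.6% and 16.8%. Many of the calls were close to the threshold. The count of pathway genes called was 6, 8 and 5 with PBS replicates 1, 2 and 3 left out in turn. It was 5, 9 and 7 with GCA replicates 1, 2 and 3 left out. All tested genes lost calls in these runs too, from 2151 to 1468, 1308 and 1232 for PBS and to 1375, 2088 and 1532 for GCA. Stromal markers moved in the same libraries, with 3 of 13 tested lower and none higher, and macrophage markers, with 10 of 19 higher and 1 lower. The part of these shifts in the results was not tested.

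**Figure D4:**
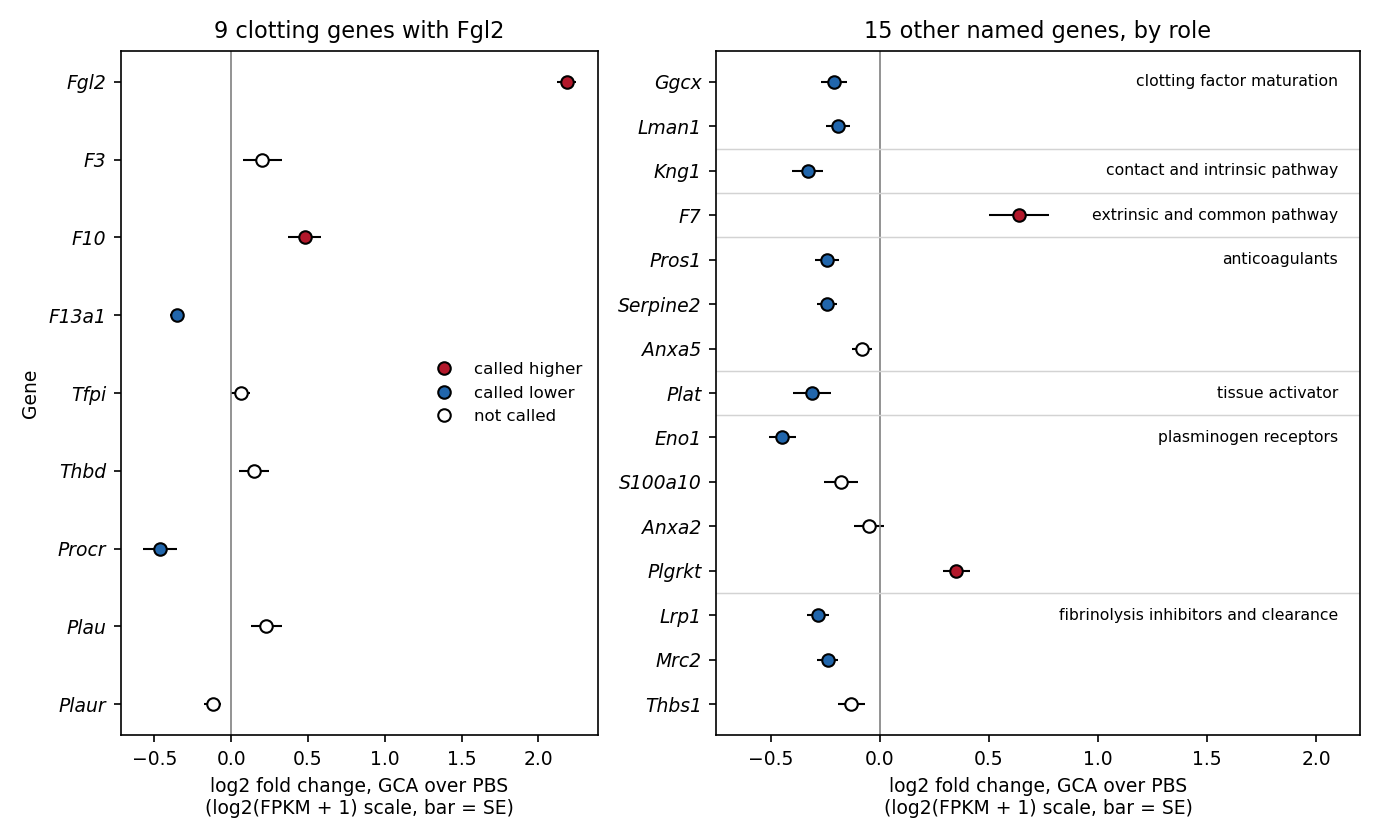
Log2 fold change of GCA over PBS on the log2(FPKM + 1) scale with its SE, for the 9 genes (left) and for 15 other pathway genes grouped by role (right), the 11 called and 4 of high level that were not; red and blue fills mark calls at an adjusted p below 0.05. Fgl2 stands apart at 2.19, and of the 15 other genes F7 and Plgrkt lie to the right of 0 and 13 to the left.

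Some central genes of the cascade were nearly absent, and they are named here after their values were seen. Prothrombin (F2), the substrate of both factor X and fibroleukin, had 0 to 2 fragments per library, plasminogen (Plg), the substrate of urokinase, 0 to 1, and factor XII (F12) 0 to 1. In all, 25 listed genes were below the filter, and Fga, Fgb, Fgg, F13b, Vtn and Hrg had no entry among the genes with a value. Kng1, which encodes the kininogen of the contact pathway, went from 6.27 ± 0.54 to 4.78 ± 0.24 FPKM (log2 -0.33, adjusted p = 0.0151 by limma). That value is uncertain, because 17.2% of its transcript stretches of 50 bases also occur in Kng2, named for that overlap, which was at 3.41 to 5.63 FPKM. Without PBS replicate 3 or GCA replicate 1 its adjusted p was 0.0545 or 0.0531.

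Genes that mature clotting factors included Ggcx, the vitamin K-dependent carboxylase, at 9.87 ± 0.52 and 8.41 ± 0.44 FPKM, and Lman1, the carrier that exports factors V and VIII, at 28.5 ± 1.20 and 24.8 ± 1.23. Both were called lower, by narrow margins (adjusted p = 0.0463 and 0.0435 by limma), and 3 of the 5 tested genes of the group were not called. Over all tested genes 6.43% were called lower. The call of Ggcx ended without any 1 of the 6 libraries (0.0522 to 0.143), and that of Lman1 without any but GCA replicate 2 (0.0729 to 0.137).

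Of 4 tested anticoagulants outside the 9 genes, 2 were called lower, beside 6.43% of all tested genes. Protein S (Pros1), the cofactor of activated protein C, fell from 42.2 ± 1.66 to 35.5 ± 1.88 FPKM (log2 -0.24, SE 0.054, adjusted p = 0.0190 by limma). Without PBS replicate 1, PBS replicate 3 or GCA replicate 1 its adjusted p was 0.0602, 0.0622 or 0.0678. Serpine2, a protease inhibitor that acts on thrombin and urokinase, fell from 52.4 ± 1.71 to 44.1 ± 1.08 FPKM (log2 -0.24, SE 0.046, adjusted p = 0.00992) and was called under every alternative run. Anxa5, which covers the phospholipid that clotting factors need, was at 386 ± 7.36 FPKM in PBS and 365 ± 9.84 in GCA, which did not pass.

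In fibrinolysis the plasminogen receptors differed in direction. Plgrkt, a membrane receptor that holds plasminogen on macrophages, rose from 10.9 ± 0.77 to 14.2 ± 0.70 FPKM (log2 0.35, SE 0.064, adjusted p = 0.00847 by limma). Eno1, the glycolytic enzyme enolase that also binds plasminogen at the cell surface, fell from 132 ± 5.25 to 96.9 ± 6.69 FPKM (log2 -0.45, adjusted p = 0.00256). It shares 26.0% of its 50-base stretches with other genes, chiefly Eno1b, so its level is uncertain. The annexin A2 complex genes, Anxa2 at 189 ± 11.8 and 182 ± 13.2 FPKM and S100a10 at 243 ± 13.8 and 215 ± 21.6, did not pass. Plat, the tissue-type plasminogen activator, was low, at 1.90 ± 0.17 and 1.34 ± 0.16 FPKM. It was called lower (adjusted p = 0.0420 by limma) but the call ended without any 1 of the 6 libraries (0.0529 to 0.133).

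Both receptor genes among the fibrinolysis inhibitors and clearance genes fell. Lrp1, an endocytic receptor that clears proteases from the cell surface, fell from 124 ± 5.74 to 102 ± 3.54 FPKM (log2 -0.28, SE 0.052, adjusted p = 0.00865 by limma). Mrc2, the collagen receptor that associates with the urokinase receptor, fell from 33.6 ± 1.26 to 28.3 ± 0.51 FPKM (log2 -0.24, SE 0.046, adjusted p = 0.0110). Both kept their call at a threshold of 0.05 under every alternative run at it. Thbs1, thrombospondin, was the most abundant gene of the list at 656 ± 40.2 and 599 ± 31.9 FPKM and did not pass.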

How the data were processed

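Per the labels' protocols, Trizol was used for RNA and sequencing was paired-end, with reads of 150 bp. The authors deposited 1 value per Ensembl gene and library, with no unit named. The deposited values were identified as FPKM from the files: multiplied by exon-union length in GENCODE M21 they are whole fragments, within 0.02, for 90.8% to 91.0% of non-zero matched values, and for all 54 values of the 9 genes. Per the submitters' processing notes, the tools include Bowtie 0.12.2 and the genome builds mm8 and mm9. The authors' counting tool, annotation and strand setting were not given in the sources used here. Of 27263 genes, 27204 matched GENCODE M21 (GRCm38), which gave symbols and coordinates, and 59 did not.

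limma 3.58.1 in R 4.3.3 (trend, robust) tested log2(FPKM + 1), a scale that understates changes of low genes, across all 11984 genes averaging 1 FPKM or more. The model held treatment alone. Two-sided p-values received Benjamini-Hochberg adjustment, with a threshold of 0.05. The step was tested on simulated data. Libraries of a group differed by more than fragment sampling noise (mean chi-square per gene at least 5.79). The members and gene lists were chosen with earlier results of these data known. Named genes were the 9 members, every pathway gene called, the 6 pathway genes of highest mean level and the 5 genes nearest to Fgl2. Other pathway genes are marked where they are named, and marker genes named singly were outside these rules. Alternatives were the replicate number as a block, 2 other scalings, 3 filters, 2 pseudocounts, limma without trend and robust moderation, limma-voom on fragments, 2 thresholds and leaving out each library. Tables and plots used Python 3.11.15, pandas 2.3.3 and matplotlib 3.10.9. A single pathway gene that was measured is counted but not reported here by name.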

Additional observations from a re-analysis of the deposited data

How the results depend on the processing

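With no filter on low values, 1075 genes were called in place of 2151, with 2 of the 9 members and 5 of the pathway genes in place of 4 and 11, as more genes were tested (27263 in place of 11984). At an adjusted p of 0.01 the counts were 837, 2 and 4. Leaving out 1 library at a time gave 1232 to 2088 genes, 2 to 5 members and 5 to 9 pathway genes. Same-numbered PBS and GCA libraries correlated at 0.08, 0.03 and 0.07 in their deviations from the group means. Other pairs ran from -0.08 to 0.02, so each library correlated best with its own number. Correlations this small cannot decide whether the numbers pair the samples. With the replicate block 2094 genes, 4 members and 10 pathway genes were called, and Plat lost its call (adjusted p = 0.0679). Over 24 named genes and 428 results under alternatives, 369 kept direction and side of the threshold, 56 lost the call, 2 gained it (F3 and Plau without GCA replicate 2) and 1 changed sign: Anxa2, not called, which ranged from -0.101 to 0.012 with 1 library left out, the latter without GCA replicate 2. Low fragment numbers limit F7 and F10, and 3 libraries per group limit all differences.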

Other observations

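F5, which encodes factor V, the cofactor of factor X, lay below the filter and was not tested. It had 34, 32 and 38 fragments in PBS and 10, 12 and 11 in GCA, which is 0.258 ± 0.026 against 0.082 ± 0.009 FPKM (SD, n = 3 each). All PBS values were above all GCA values. Vwf, the gene of von Willebrand factor, an adhesive protein of endothelial cells and platelets, had 37, 21 and 32 fragments in PBS and 73, 35 and 86 in GCA. Its groups overlapped, since GCA replicate 2 lay below PBS replicate 1. Both genes were named after their values were seen.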
